A study of Homo sapiens with 6 samples.

Results

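The genes described here are the MYC family (MYC, MYCN and MYCL, written MYCL1 on the array), the partner proteins MAX and MXD4, and 5 nucleolar genes, NCL, NPM1, FBL, DKC1 and GNL3. All probes whose gene name equals one of these 10 symbols were taken, which gave 21 of the 47230 probes on the array and 10 of its 31334 gene names. The probes were matched by name, but the 10 genes themselves were picked with earlier results of these data known, so counts over them are descriptions. The study asked which genes are affected when HERVH, a family of human endogenous retroviruses transcribed in human embryonic stem cells, is depleted. Cells of the established line H1, derived from a human embryo, received either a pSUPER plasmid encoding a short hairpin RNA (shRNA) against HERVH (HERVH shRNA, 3 samples) or the same kind of plasmid with an shRNA against luciferase (control shRNA, 3 samples). All 6 samples came from cells at passage 32 grown without feeders on Matrigel in conditioned medium with bFGF, which were transfected with 2 µg of plasmid and collected 5 days later. The labels mention neither a selection for transfected cells nor the share of cells that took up the plasmid. The labels number the replicates but do not say whether they were separate cultures, so the p-values measure the spread between these samples, which may be technical.

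MYC proteins are transcription factors that bind DNA as a dimer with MAX, mostly at the E-box motif CACGTG, and they promote cell growth. MXD4 belongs to the MAD proteins, which also pair with MAX at such motifs and repress transcription there. Genes for nucleolar proteins that make ribosomes are among the best known MYC targets, and in human embryonic stem cells MYC and MYCN are linked to rapid division and self-renewal.

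In cells with HERVH shRNA, both MYC probes, both MYCN probes and every probe above background on all 6 arrays for NCL, FBL, DKC1 and GNL3 were lower than in cells with control shRNA, and MXD4 was higher. MYCN signal was 50.6% of the control level and MYC signal 57.4% at the probe that represents each gene. At the other probe of each gene, MYCN was at 56.0% and MYC at 72.0%. Neither of the 2 MAX probes above background on all arrays was called. Of the 21 probes, 12 (57.1%) were called lower and 1 (4.76%) higher, where 12.6% of all probes on the array were called lower and 12.1% higher. Many probes of the array lie at background. With 1 probe per gene, 8 of the 10 genes had a mean signal above background. Of these, 6 were called lower and 1 higher, where 26.1% of all gene names above background were called lower and 29.7% higher. At 13 of the 21 probes all HERVH shRNA samples lay below all control samples, and at 2 they all lay above, where 17.5% of all probes were wholly below and 17.3% wholly above.

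The values are fluorescence signals of a 1-colour Illumina array in arbitrary units, quantile normalized so that all arrays share one distribution. Signals of different probes cannot be ranked against each other, because probes differ in how well they bind. Differences are given on the log2 scale as HERVH shRNA minus control shRNA, with the standard error (SE), and adjusted p-values come from limma with Benjamini-Hochberg adjustment over all 47230 probes. A probe was called higher or lower where the adjusted p was under 0.05. Background was taken on each array as the 95th percentile of 463 probes named for olfactory receptors, genes not known to be transcribed in these cells, and lay between 79.1 and 82.0 units. Between 38.7% and 41.4% of the probes on an array exceeded it. Correlations of log2 signals across all probes were 0.994 to 0.995 between arrays of one group and 0.968 to 0.972 between groups. POU5F1 and NANOG, which define pluripotent cells, together with SOX2, had a probe above background on all 6 arrays. No probe was named HERVH, so the depletion of the targeted RNA was not read here.

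The CACGTG motif was looked for in the members' promoters. These were taken as 250 bases before to 50 bases after each gene start in a promoter table of RefSeq genes for GRCh38.p14. Of the 10 genes, 9 were matched. MYC was missing from the table used here, so its promoter was not searched. The motif is its own reverse complement, so a search of one strand covers both. It was found in 3 of these 9 genes, MXD4, FBL and GNL3, whereas 8.77% of all genes in the table and 7.26% of all promoters hold it. Of the matched gene names with a mean signal above background, 1225 hold it and 8333 do not. The 3 members with the motif were called in opposite directions, MXD4 higher and FBL and GNL3 lower. In the sequences below, written 5′ to 3′ on the gene's strand, the motif is in capitals. It starts at base -238 in MXD4 and at base 7 in FBL and in GNL3, counted from the gene start as base 1. The windows are chr4:2262060-2262359 on the minus strand for MXD4, chr19:39846330-39846629 on the minus strand for FBL, and chr3:52685782-52686081 on the plus strand for GNL3, the second of 2 GNL3 starts in the table.
MXD4: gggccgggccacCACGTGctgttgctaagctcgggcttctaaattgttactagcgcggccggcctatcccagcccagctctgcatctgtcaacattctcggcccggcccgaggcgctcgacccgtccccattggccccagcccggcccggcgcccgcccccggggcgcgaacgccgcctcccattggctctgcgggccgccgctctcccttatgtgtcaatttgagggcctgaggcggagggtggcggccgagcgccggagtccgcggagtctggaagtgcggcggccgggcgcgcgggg
FBL: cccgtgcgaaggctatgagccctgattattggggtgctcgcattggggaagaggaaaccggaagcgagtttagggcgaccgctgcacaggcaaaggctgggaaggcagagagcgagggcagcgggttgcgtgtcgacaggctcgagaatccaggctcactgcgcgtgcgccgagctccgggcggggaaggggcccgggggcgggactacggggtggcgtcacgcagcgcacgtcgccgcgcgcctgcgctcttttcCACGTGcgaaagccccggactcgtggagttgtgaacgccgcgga
GNL3: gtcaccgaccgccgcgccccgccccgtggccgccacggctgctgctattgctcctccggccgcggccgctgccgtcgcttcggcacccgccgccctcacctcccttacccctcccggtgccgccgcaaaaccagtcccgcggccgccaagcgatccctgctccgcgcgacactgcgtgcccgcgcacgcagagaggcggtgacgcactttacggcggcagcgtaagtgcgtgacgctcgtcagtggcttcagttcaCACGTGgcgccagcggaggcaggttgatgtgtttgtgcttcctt
No CACGTG was found in the windows of MYCN, MYCL1, MAX, NCL, NPM1 and DKC1, which says only that these letters are not within them. NCL, DKC1 and MYCN were called lower without the motif in the window and FBL and GNL3 with it.

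MYC, the founding member of the family, was represented by probe ILMN_1680618. It gave signals of 788, 653 and 696 in the 3 HERVH shRNA samples, against 1196, 1203 and 1312 in the 3 control shRNA samples. All HERVH shRNA samples lay below all control samples. The log2 difference was -0.80 (SE 0.08, limma adjusted p = 1.97e-07). The other MYC probe, ILMN_2110908, gave 336, 348 and 275 in HERVH shRNA samples, against 434, 469 and 422 in control samples. The groups again did not overlap, and the log2 difference was -0.47 (SE 0.09, limma adjusted p = 0.000334). The log2 ratio of the first probe to the second was 0.91 to 1.34 in HERVH shRNA samples and 1.36 to 1.64 in control samples (exact permutation p = 0.1, two-sided, the smallest that 3 against 3 samples allow).

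MYCN, the family member first found amplified in neuroblastoma, was represented by probe ILMN_2219767. Its signals were 1307, 1273 and 1205 in HERVH shRNA samples, against 2388, 2407 and 2698 in control samples. The groups did not overlap. The log2 difference was -0.98 (SE 0.08, limma adjusted p = 4.42e-09). The other probe, ILMN_1653761, gave 215, 185 and 201 in HERVH shRNA samples, against 415, 341 and 322 in control samples, with a log2 difference of -0.84 (SE 0.09, limma adjusted p = 4.36e-07). The 95% confidence intervals of the 2 MYCN probes, -1.15 to -0.82 and -1.03 to -0.64, overlapped.

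MYCL1, the third MYC gene, was close to background at all 3 of its probes. Probe ILMN_1803650 gave 81.0, 87.4 and 76.5 in HERVH shRNA samples, against 85.4, 77.1 and 72.3 in control samples, and the groups overlapped (log2 difference 0.06, SE 0.08, limma adjusted p = 0.71). At ILMN_1795270 the signals were 65.5, 73.1 and 64.3 in HERVH shRNA samples, none above background, against 88.0, 89.0 and 79.6 in control samples, all just above it. This probe was called lower (limma adjusted p = 0.00309). Since its HERVH shRNA level is only a bound, it was at least 1.06-fold lower. The fold is the control mean over the background level of the HERVH shRNA arrays. Such a bound allows for the background but not for the spread between samples. The third probe was not above background on any array.

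MAX, the obligate partner of the MYC and MAD proteins, had 5 probes, none of them far above background. ILMN_1802457 gave 92.8, 98.3 and 94.2 in HERVH shRNA samples, against 79.7, 82.5 and 104.6 in control samples. One control sample exceeded all HERVH shRNA samples, and the log2 difference was 0.11 (95% confidence interval -0.09 to 0.30, limma adjusted p = 0.509). ILMN_1706546 gave 97.9, 90.0 and 90.9 in HERVH shRNA samples, against 83.5, 88.0 and 81.0 in control samples. These groups did not overlap, but the log2 difference of 0.14 (95% confidence interval -0.02 to 0.30) did not pass the test (limma adjusted p = 0.234). At the next probe, ILMN_2363426, the signal was below background in all HERVH shRNA samples and above it in all control samples. The probe was called lower, by at least 1.13-fold computed as for MYCL1 (limma adjusted p = 0.00979), but not without control shRNA replicate 2 (adjusted p = 0.0801) nor with a signal floor of 64 (adjusted p = 0.0736). The remaining 2 MAX probes were not above background on any array. The MAX probes therefore gave no common direction.

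MXD4, whose protein competes with MYC for MAX, was the only one of the 10 genes with a probe called higher. Its single probe gave 1361, 1372 and 1348 in HERVH shRNA samples, against 694, 680 and 725 in control samples. Samples within a group differed little and the groups did not overlap. The log2 difference was 0.96 (SE 0.08, limma adjusted p = 2.55e-09), or 194.4% of the control level.

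**Figure D1:**
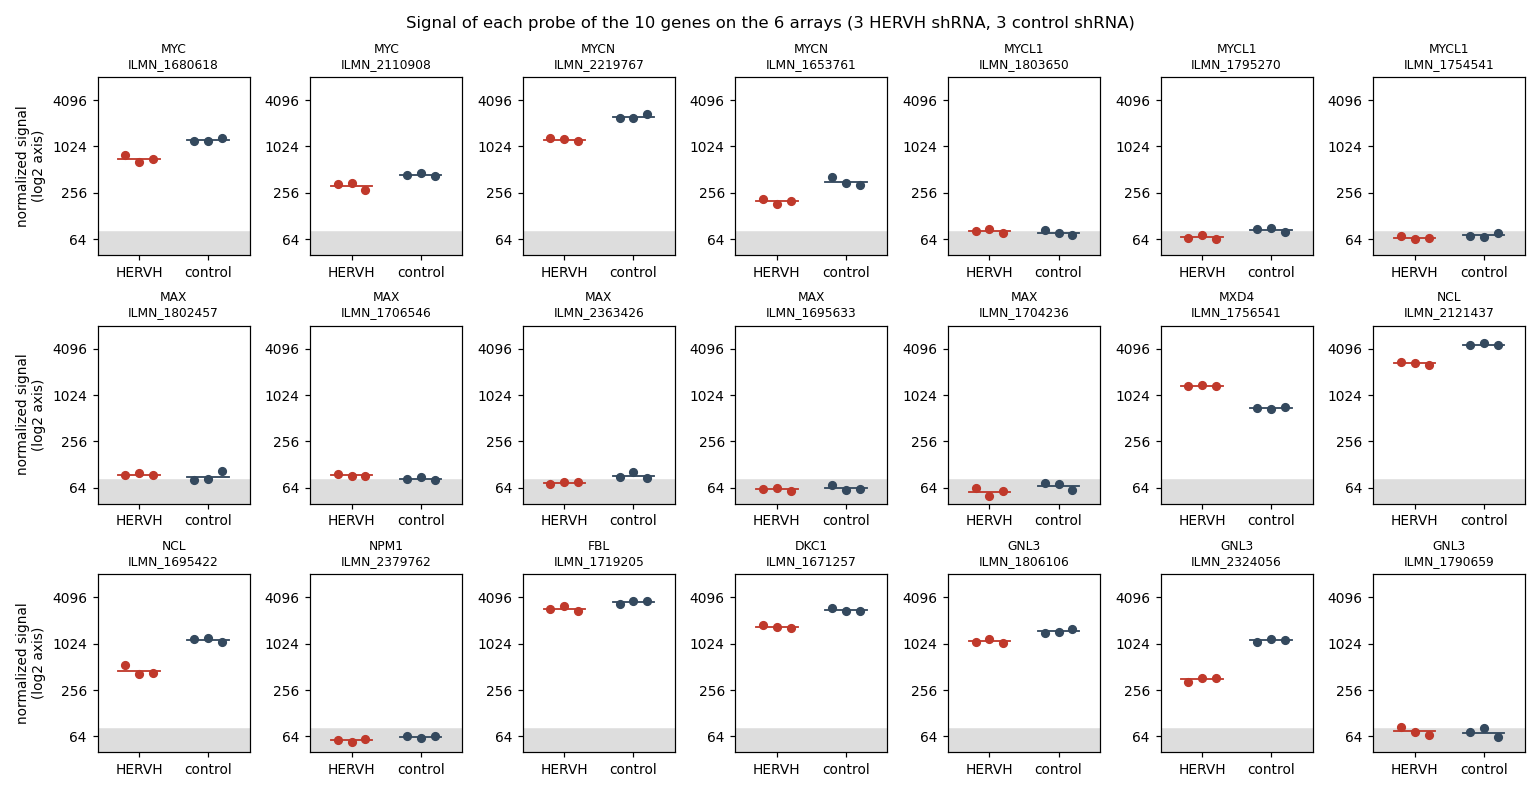
Normalized signal (log2 axis, arbitrary units) of the 21 probes on the 6 arrays, with HERVH shRNA samples in red on the left and control shRNA samples in dark blue on the right of each panel. Points are samples, lines are means of log2 values, and the grey band lies below the mean background level. Both MYC and both MYCN probes were lower in all 3 HERVH shRNA samples, MXD4 was higher in all 3, and MYCL1, MAX and NPM1 lay near or within the band.

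Of the 5 nucleolar genes, 4 had readable signal, and all 4 were lower with HERVH shRNA. NCL encodes nucleolin, a major nucleolar protein that acts in ribosomal RNA transcription and processing. Its probe ILMN_2121437 gave 2747, 2681 and 2553 in HERVH shRNA samples, against 4602, 4810 and 4514 in control samples. The control samples were all above the HERVH shRNA samples, and the log2 difference was -0.80 (SE 0.08, limma adjusted p = 4.34e-08). The other NCL probe, ILMN_1695422, gave 536, 416 and 428 in HERVH shRNA samples, against 1175, 1230 and 1074 in control samples (log2 difference -1.34, SE 0.09, limma adjusted p = 4.79e-10). The 95% confidence intervals of the 2 NCL probes, -0.96 to -0.64 and -1.54 to -1.14, did not overlap.

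GNL3 encodes nucleostemin, a nucleolar GTP-binding protein abundant in stem cells. Its representing probe, ILMN_1806106, gave 1093, 1167 and 1059 in HERVH shRNA samples, against 1428, 1466 and 1567 in control samples. The groups did not overlap, with a log2 difference of -0.43 (SE 0.08, limma adjusted p = 0.000224). A second probe, ILMN_2324056, gave 329, 367 and 370 in HERVH shRNA samples, against 1061, 1192 and 1132 in control samples. Its log2 difference of -1.67 (SE 0.08, limma adjusted p = 1.75e-12) was the largest in size of the 21 probes. The log2 ratio of the first probe to the second was 1.52 to 1.73 in HERVH shRNA samples and 0.30 to 0.47 in control samples, without overlap (exact permutation p = 0.1, two-sided, the smallest possible). The mean log2 difference of the 2 probes was -1.05, so the size for GNL3 depends on the probe. The transcripts bound by each probe were not looked up. The third probe, ILMN_1790659, lay around background with overlapping groups (limma adjusted p = 0.812).

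DKC1 encodes dyskerin, the pseudouridine synthase of H/ACA small nucleolar ribonucleoproteins (snoRNPs) and a component of telomerase. Its probe gave 1776, 1690 and 1643 in HERVH shRNA samples, against 2951, 2757 and 2686 in control samples. All HERVH shRNA samples lay below the control samples, and the log2 difference was -0.72 (SE 0.08, limma adjusted p = 2.86e-07). FBL encodes fibrillarin, the methyltransferase of box C/D snoRNPs. Its probe gave 2850, 3147 and 2747 in HERVH shRNA samples, against 3377, 3637 and 3689 in control samples. The groups did not overlap, but the log2 difference, -0.29 (SE 0.08, limma adjusted p = 0.0089), was the smallest of the nucleolar probes called. NPM1 encodes nucleophosmin, an abundant nucleolar chaperone. The 1 probe named NPM1 gave 56.7, 55.0 and 58.7 in HERVH shRNA samples, against 64.2, 61.2 and 65.4 in control samples. None of these values was above background, so no fold is given, and the difference did not pass the test (limma adjusted p = 0.147).

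**Figure D2:**
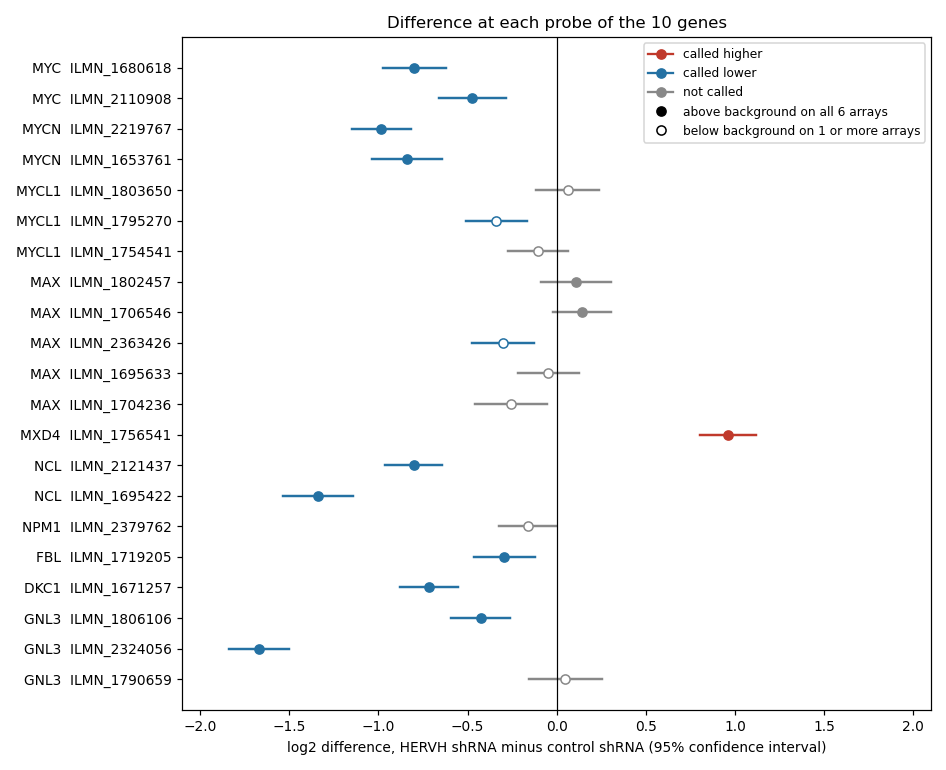
Log2 difference (HERVH shRNA minus control shRNA) with its 95% confidence interval at each of the 21 probes. Filled points were above background on all 6 arrays. The probes called lower run from -1.67 at a GNL3 probe to -0.29 at FBL, and MXD4 is the only probe called higher, at 0.96.

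Among the probes above background on all 6 arrays, those called lower ranged from -1.67 to -0.29. The ranges of MYC and MYCN were within those of the nucleolar genes. For the 4 genes MYC, MYCN, NCL and GNL3, both probes above background on all 6 arrays were called in the same direction.

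**Figure D3:**
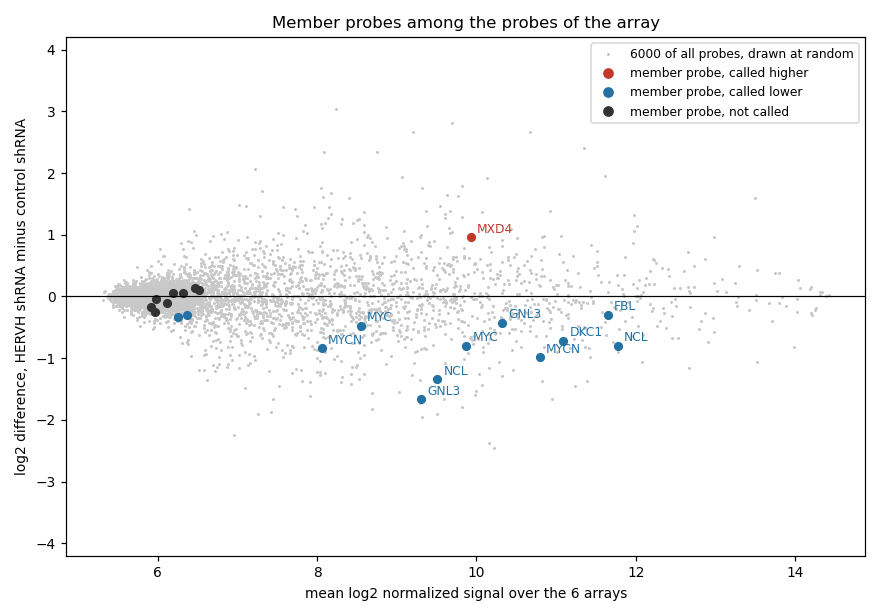
Log2 difference (HERVH shRNA minus control shRNA) against the mean log2 normalized signal over the 6 arrays, for the member probes and for 6000 probes drawn at random from all probes. Member probes called lower are blue, the MXD4 probe called higher is red, and members not called are dark grey and sit at low signal.

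Of 8 other genes of the MYC and MAX network, 2 (25%) were called higher, none was called lower and 6 were not called. The median log2 difference was 0.09. MXD3 and MLXIP, both among those not called, had a mean signal not above background. Over all gene names, with 1 probe each, 14.8% were called higher and 13.2% lower, with a median of 0.01, and among the 14260 gene names with a mean signal above background these shares were 29.7% and 26.1%, with a median of 0.02. The 2 genes called higher encode MAD proteins like MXD4, while MXD3 of the same family was not called. MXD1 averaged 161.0 ± 6.25 in HERVH shRNA samples and 87.6 ± 4.31 in control samples (SD, n = 3 each), a log2 difference of 0.88 (SE 0.08, limma adjusted p = 1.6e-08). MXI1 was at least 1.17-fold higher, since its control samples were all below background (limma adjusted p = 0.000506).

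The other proteins of the snoRNPs that hold DKC1 and FBL were mostly lower. Of 9 such genes, all with a mean signal above background, 7 (77.8%) were called lower and none higher. Their median log2 difference was -0.65. Of all gene names above background, 26.1% were called lower and 29.7% higher. NHP2, a core protein of H/ACA particles with DKC1, averaged 1096 ± 46.0 in HERVH shRNA samples and 3123 ± 194 in control samples (log2 difference -1.51, SE 0.08, limma adjusted p = 5.64e-12). NOP56, a core protein of box C/D particles with FBL, averaged 595 ± 11.5 in HERVH shRNA samples and 1313 ± 10.8 in control samples (log2 difference -1.14, SE 0.07, limma adjusted p = 1.57e-10). NOLC1, a chaperone of these particles, had a log2 difference of -0.82 (limma adjusted p = 1.56e-07). The 2 not called, named after their values were seen, were NOP10, at 0.19 (limma adjusted p = 0.102), and NAF1, at 0.03 (limma adjusted p = 0.883). NOP10 is a core H/ACA protein, so DKC1, NHP2 and NOP10 of the same particle did not share a call.

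Among 43 other ribosome biogenesis factors, 25 (58.1%) were called lower, 1 (2.33%) higher and 17 were not called, with a median log2 difference of -0.29. All 43 had a mean signal above background, where 26.1% of all gene names were called lower and 29.7% higher. The largest differences were at NOP16 (-1.43), NPM3 (-1.09), WDR12 (-1.01) and RRS1 (-0.85), all with limma adjusted p-values of at most 1.69e-07. NPM3 is a paralog of NPM1, and WDR12 acts in maturation of the large ribosomal subunit. The 1 gene called higher was NOC3L (log2 difference 0.33, limma adjusted p = 0.00266). A CACGTG motif stood in the promoter window of 18 of the 36 of these genes that the promoter table used here holds (50%). Of the 18 with the motif 7 were called lower, and of the 18 without it 15 were called lower. Among all gene names above background, 28.2% of those with the motif and 25.3% of those without it were called lower. For the MYC growth and metabolism targets described below, the split went the other way. Of those above background, 8 of 12 with the motif and 7 of 14 without it were called lower. In the snoRNP list these were 1 of 2 and 3 of 3, and in the polymerase list 0 of 1 and 7 of 14. These shares describe the genes and were not tested.

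Genes of the RNA polymerase I and III machinery, which transcribes ribosomal and transfer RNA, went both ways. Of 19 genes, 9 (47.4%) were called lower and 4 (21.1%) higher, with a median log2 difference of -0.24. Of all gene names above background, as were 18 of these 19, 26.1% were called lower and 29.7% higher. POLR3B, a catalytic subunit of polymerase III, was lower by the largest step (-0.75, limma adjusted p = 3.98e-07), and POLR3A, the other large catalytic subunit, was higher (0.38, limma adjusted p = 0.000633). POLR1C, a subunit shared by both polymerases, had a log2 difference of -0.51, and POLR1B, a catalytic subunit of polymerase I, one of 0.34 (limma adjusted p = 0.00549).

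MYC targets in growth and metabolism were also mixed. Of 32 genes, 18 (56.2%) were called lower, 5 (15.6%) higher and 9 were not called, with a median log2 difference of -0.25. Of all gene names above background, as were 31 of these 32, 26.1% were called lower and 29.7% higher. MTHFD2, a mitochondrial enzyme of folate metabolism, averaged 762 ± 28.8 in HERVH shRNA samples and 1957 ± 98.7 in control samples (log2 difference -1.36, SE 0.08, limma adjusted p = 2.09e-11). CDC25A, a phosphatase that activates cyclin-dependent kinases, had a log2 difference of -1.29, FASN, fatty acid synthase, one of -0.78, and TFRC, the transferrin receptor, one of -0.73. CCND2 and CCND1, which encode D-type cyclins, were higher by 0.69 and 0.56, SHMT2, a mitochondrial serine enzyme, by 0.68, and ODC1, which encodes ornithine decarboxylase and is often cited as a direct MYC target, by 0.44 (limma adjusted p = 0.000194).

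Of 10 genes that MYC is known to repress, 7 (70%) were called higher, 2 (20%) lower and 1 was not called, with a median log2 difference of 0.86. All 10 were above background, where 29.7% of all gene names were called higher and 26.1% lower. CDKN1A, which encodes the cyclin-dependent kinase inhibitor p21, averaged 11204 ± 1160 in HERVH shRNA samples and 2308 ± 81.7 in control samples (log2 difference 2.27, SE 0.09, limma adjusted p = 3.62e-14). GADD45A, a stress-response gene, had a log2 difference of 1.93, CDKN2B one of 1.25 and CDKN1C one of 1.18. CDKN2B and CDKN1C encode further inhibitors of cyclin-dependent kinases. Several of these genes, CDKN1A and GADD45A among them, also respond to other regulators such as p53. NDRG2 (-0.94) and CDKN1B (-0.37) were called lower.

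**Figure D4:**
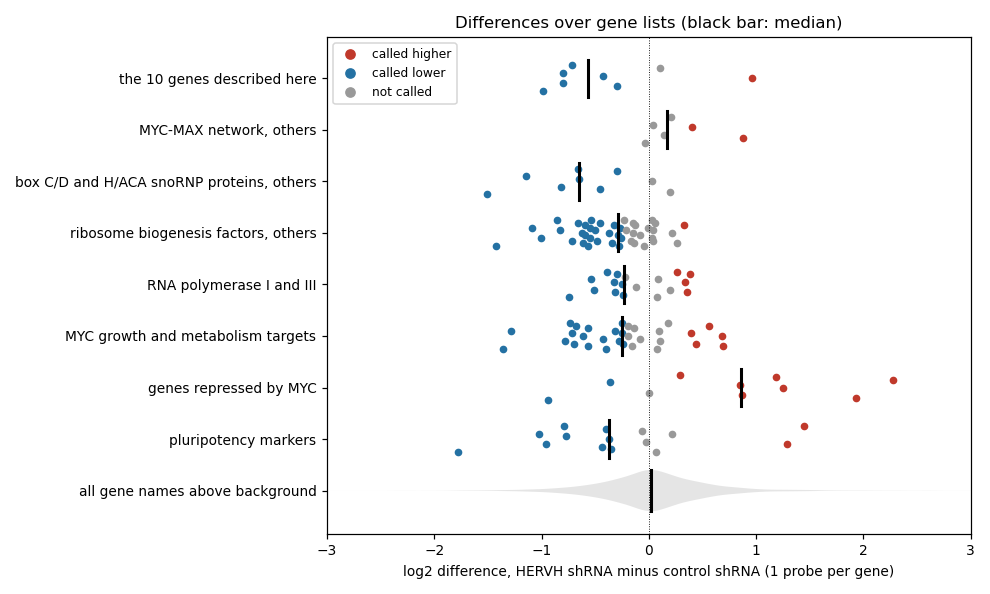
Log2 difference (HERVH shRNA minus control shRNA) of each gene with a mean signal above background, 1 probe per gene, in the 10 genes described here, in related gene lists without those 10 genes, and over all gene names above background (grey shape). The lists drawn are the MYC and MAX network, snoRNP proteins, ribosome biogenesis factors, RNA polymerase I and III, growth and metabolism targets, genes repressed by MYC and pluripotency markers, and the other marker lists are not drawn. Black bars are medians, at -0.65 for the snoRNP proteins and 0.86 for the genes repressed by MYC.

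Marker lists of cell types were read on the same arrays, and their counts stand against 14.8% of all gene names called higher and 13.2% lower. Among gene names with a mean signal above background, these shares were 29.7% and 26.1%. A summed signal depends mostly on the probes of highest signal, so it does not describe every gene of a list. All 15 pluripotency markers and 8 of 12 fibroblast and mesenchymal markers were above background. In the other lists it was 5 of 12 trophoblast, 4 of 10 neuroectoderm, 3 of 10 endoderm and 3 of 10 mesoderm markers. Of 15 pluripotency markers, 9 were called lower, 2 higher and 4 were not called, and their summed signal was 39982 to 43463 in HERVH shRNA samples and 47529 to 48102 in control samples. POU5F1 averaged 1409 ± 27.5 in HERVH shRNA samples and 2870 ± 298 in control samples (log2 difference -1.02, SE 0.08, limma adjusted p = 5.11e-09). LIN28, an RNA-binding protein of undifferentiated cells, averaged 3449 ± 211 in HERVH shRNA samples and 6714 ± 170 in control samples (log2 difference -0.96). The other POU5F1 probe, above background on 3 of the 6 arrays, was not called (-0.16, limma adjusted p = 0.202). NANOG had a log2 difference of -0.40 at its representing probe and -0.14 at its other probe, which was not called (limma adjusted p = 0.232). SOX2 had log2 differences of -0.44 at its representing probe and -2.12 at its other probe, both called lower. At representing probes, the largest difference of this list was at TERF1 (-1.78, limma adjusted p = 4.48e-13). UTF1 and LEFTY1 were the pluripotency markers called higher, by 1.44 and 1.28. LEFTY1 averaged 9723 ± 787 in HERVH shRNA samples and 3995 ± 287 in control samples, against the direction of the summed signal.

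Of 12 fibroblast and mesenchymal markers, 8 were called higher and none lower, with a summed signal of 40762 to 42725 in HERVH shRNA samples and 15829 to 16973 in control samples. TAGLN alone averaged 20144 ± 811 in HERVH shRNA samples and 6707 ± 396 in control samples. COL3A1, LUM, DCN and POSTN of that list had a mean signal not above background, and TWIST1, a transcription factor of mesenchymal cells, had the largest difference (log2 2.95, limma adjusted p = 1.67e-16). Of 12 trophoblast markers, 4 were called higher and 8 were not called, with a median log2 difference of 0.07. Their summed signal was 1996 to 2054 in HERVH shRNA samples and 1118 to 1131 in control samples, and TFAP2C alone averaged 945 ± 33.8 in HERVH shRNA samples and 349 ± 5.77 in control samples. HAND1 and TFAP2A, below background in all control samples, were at least 2.78-fold and 2.61-fold higher. CGA, CGB5, KRT7, CDX2, GATA3, ELF5 and ERVWE1 of that list had mean signals not above background.

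Of 10 endoderm markers, 3 were called higher, 2 lower and 5 were not called, with a median log2 difference of 0.05. The summed signal was 1711 to 1763 in HERVH shRNA samples and 804 to 828 in control samples, and most of that difference was AFP, which encodes alpha-fetoprotein and averaged 1028 ± 42.2 in HERVH shRNA samples and 168 ± 1.36 in control samples. FOXA2, at least 1.05-fold, and EOMES (log2 difference -0.23) were called lower, and 7 markers, GATA6 among them, had mean signals not above background. Of 10 neuroectoderm markers, 2 were called higher and 8 were not called, with a median of 0.10. Their sums were 3688 to 3907 in HERVH shRNA samples and 1753 to 1862 in control samples, and nearly all of that difference was NES, the intermediate filament nestin, which averaged 3131 ± 111 in HERVH shRNA samples and 1198 ± 67.4 in control samples. Of 10 mesoderm markers, 1 was called higher, and the sums, 801 to 867 in HERVH shRNA samples and 809 to 839 in control samples, overlapped. RUNX1 and 6 other mesoderm markers were not above background. The part of these marker differences in those at the MYC and nucleolar genes was not tested. In RNA from whole cultures, fewer cells of a type and less RNA per cell cannot be told apart.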

How the data were processed

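Total RNA of 6 samples was labelled with biotin and hybridised to 1-colour Illumina arrays, per the labels' protocols. GenomeStudio is named in the submitters' processing notes; for the version, background correction and normalization, nothing is given in the sources used here. The authors deposited linear signal intensity values per sample, and these were used. A second table the authors deposited, with other columns of text (probe identifiers and gene names) and 12 columns of numbered signals and detection p-values, was read for the names only, since those 12 columns match no sample label.

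Intensities were quantile normalized and log2 transformed; a floor of 16 changed 0 values. HERVH shRNA was compared with control shRNA by limma 3.58.1 in R 4.3.3 (lmFit and eBayes, two-sided, no filter, Benjamini-Hochberg over all probes); the procedure was tested on simulated data. All 21 probes are named, and a gene is represented by its probe of highest mean. From each list, called genes were named out of the up to 4 per direction with the largest differences, not all of them. POU5F1, NANOG, SOX2, LIN28, GATA6 and RUNX1 were named whatever their values. Some genes not called or not above background were also named. Bounds against background use the mean of the higher of each array's background level and the probe's value. Promoters were searched with Python 3.11. Array number limits the precision, and slide and scan were not given in the values used. The members and lists were chosen with earlier results of these data known. Alternatives covered normalization, background, floor, filter, prior, array weights, replicate block and leaving out each array.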

Additional observations from a re-analysis of the deposited data

How the results depend on the processing

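Under 16 alternatives, the counts over all probes kept within 1.5 times of 5695 higher and 5928 lower, from 4772 to 6120 higher and from 5010 to 6640 lower. The member probes called lower numbered 11 to 13 and MXD4 stayed the 1 called higher. Each of the 11 probes of MYC, MYCN, NCL, FBL, DKC1, GNL3 and MXD4 above background on all 6 arrays kept its direction and call, FBL with adjusted p-values up to 0.0459 and ILMN_2110908 of MYC up to 0.0471. A MAX probe lost its call with a floor of 64 (adjusted p = 0.0736) and without control shRNA replicate 2 (0.0801), and a MAX probe below background passed without HERVH shRNA replicate 1 (0.0246) or control shRNA replicate 3 (0.016); the cause was not tested. Among the related lists, 1 snoRNP gene was called higher with probes above the median signal or above background only, where fewer probes were tested, with the trended prior, and without HERVH shRNA replicate 2 (0 to 1 over arrays left out). The ribosome biogenesis genes called higher numbered 2 with normexp and with the replicate block, 3 with either filter and with the trended prior, and 1 to 2 over arrays left out (2 without HERVH shRNA replicate 2 or 3 or control shRNA replicate 3), against 1. Without control shRNA replicate 1, 1 gene of the MYC and MAX network was called lower (0 to 1 over arrays left out). Pairing by replicate number was not detected. Deviations from the group means of same-numbered samples correlated at 0.00 to 0.05, under the limit of 0.1 set here. Of the 6 samples, 3 correlated best with their own number. With 3 samples a group this cannot exclude pairing. With the replicate block, 5685 probes were called higher and 5912 lower. An exact permutation test of single probes gave its smallest p, 0.1, for 15 of the 21, and cannot pass the threshold with 3 samples a group. Signal over background limits what can be said of MYCL1, MAX and NPM1.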
